A study of Mus musculus with 9 samples.

Results

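The 9 genes described here, Bloc1s1, Scara3, Hgsnat, Pmp22, Sparc, Pdgfrb, Galnt10, Tapbp and Ergic3, encode mRNAs that have been reported as substrates of regulated IRE1-dependent decay. They were taken by name from a table of 25860 genes. All 9 were found and all 9 were among the 13712 genes abundant enough to test. Polyadenylated RNA had been sequenced from flow-sorted Osx1-Cre cells of the mouse calvaria (skull roof), in 5 libraries labelled IRE1KO and 4 labelled WT. In Osx1-Cre mice the promoter of the osterix gene Sp7, which is active in osteoblast precursors, drives Cre recombinase, and both groups are described as Osx1-Cre cells. The sources used here give neither the Ern1 allele nor the strain or litters. Each library came from a pool of 3 to 5 pups aged 2 to 4 days, whose cells were grown in 10% serum to 90% confluence, with no stress treatment in the labels. Because each pool is described as a biological replicate, the spread between libraries includes more than technical error.

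Ern1 encodes IRE1, which senses unfolded protein in the endoplasmic reticulum (ER) and carries a kinase and a ribonuclease on the cytosolic side of its membrane. Its ribonuclease cuts Xbp1 mRNA at a pair of stem loops, and the exons are rejoined into the mRNA of the transcription factor XBP1s. The same enzyme can cut other mRNAs, mostly of secreted and membrane proteins, which are then degraded. The loss of IRE1 is therefore reported to raise substrate mRNAs in cells where the decay is active, and Bloc1s1 is the substrate most often used to measure it. Secretory cells such as osteoblasts load the ER with collagen, so IRE1 output is of interest in them.

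The sequences around the reported cleavage motif show what is being looked for. The loop was searched as CNGCAGN, where N is any base, closed by a stem of at least 4 base pairs (G-U pairs allowed), on the sense strand of the longest coding transcript of each gene (GENCODE M21, GRCm38). The stem loops of Xbp1, both in coding exon 4 on chromosome 11 (plus strand, chr11:5524270-5524288 and chr11:5524295-5524315), are shown as the known target. Among the 9 genes, a stem loop of this form was found in Pmp22 (coding exon 4, chr11:63151120-63151134, plus strand) and Scara3 (5′ UTR in exon 1, chr14:65953517-65953533, minus strand). Capitals mark the 7-base loop and lower case the stem.
Xbp1 first site: ctgagtCCGCAGCactcag
Xbp1 second site: tgcacctCTGCAGCaggtgca
Pmp22: atggCTGCAGTctgt
Scara3: gggccCTGCAGAggccc

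The Xbp1 stems have 6 and 7 pairs, the Scara3 stem 5 and the Pmp22 stem 4. A stem loop was thus present in 2 of 9 transcripts (22.2%), against 1877 of the 13156 tested genes with a coding transcript (14.3%). The bare hexamer CTGCAG, which lies inside the searched loop, occurred in 8 of 9 transcripts (88.9%), all but Ergic3, against 86.8% of all. Bloc1s1, whose longest coding transcript has 613 bases, held the hexamer 3 times, while 39.9% of transcripts of like length (within 20%) held it at all. Its sites lie on chromosome 10, minus strand, in the 5′ UTR (chr10:128923472-128923495), across the junction of exons 1 and 2, and in coding exon 2 (chr10:128922688-128922711). Capitals mark the hexamer.
Bloc1s1 5′ UTR: gtccagttcCTGCAGccttaggga
Bloc1s1 exon junction: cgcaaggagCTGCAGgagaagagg
Bloc1s1 exon 2: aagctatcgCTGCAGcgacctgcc

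None of the 3 is closed by a pair around a 7-base loop. The exon 2 site has 3 pairs around a 6-base loop, a form looked at after the 7-base result was seen. A match or its absence describes these letters only. Pdgfrb lies on chromosome 18 and its sequence is not shown.

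Total counts ran from 18784636 to 22028075 per library, and the 9 genes had between 559 and 117194 counts in any library. Levels are given as CPM, the count scaled to the library's total. Of the defining markers of the osteoblast lineage, Runx2 was at 63.6 to 69.4 CPM in IRE1KO and 59.8 to 75 in WT, and Sp7 at 15.6 to 21.2 and 13.6 to 24.6 CPM, while Bglap (osteocalcin), a marker of mature osteoblasts, was at 0 to 0.192 and 0 to 0.103 CPM. Alpl, the alkaline phosphatase of osteoblasts, was at 14.2 to 23.8 CPM in IRE1KO and 19.8 to 25.6 CPM in WT. Some markers of other lineages were abundant in both groups and others were not. Acta2 (smooth muscle actin) was at 3123 to 3430.4 CPM in IRE1KO and 2052 to 4459 CPM in WT. Col2a1 (cartilage collagen) was at 615 to 1271 and 1098 to 1300.1 CPM. The 615 CPM was IRE1KO replicate 2, and the other IRE1KO libraries were at 1159 to 1271 CPM. Among other cartilage markers, Col11a1 was at 345 to 396 CPM in IRE1KO and 336 to 1072 CPM in WT. Acan was at 1.38 to 4.01 and 2.88 to 4.7 CPM, and Matn1 did not exceed 0.0505 CPM in any library. WT replicate 4 stood apart: on the first principal component, which held 45.9% of the variance, it scored 56.7 and the other 8 libraries -23.4 to 15.1. WT libraries also differed more among themselves, with a chi-square per degree of freedom of 1.92 to 10.1 between pairs of IRE1KO libraries and 15.5 to 114 between pairs of WT libraries. Across all genes, 35 were called higher (0.255%) and 52 lower (0.379%) in IRE1KO by edgeR's quasi-likelihood test after Benjamini-Hochberg adjustment.

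The Ern1 count did not separate the groups in the direction of a loss. Ern1 was at 55.8, 49.7, 54.7, 52.4 and 52.6 CPM in the libraries labelled IRE1KO and at 54.2, 49, 43.8 and 41.5 CPM in those labelled WT. The ranges overlap and the IRE1KO mean is the higher (log2 fold change 0.17 ± 0.076 SE, edgeR adjusted p = 0.306). Without WT replicate 1 the log2 fold change was 0.24 (adjusted p = 0.0467), in a fit that called 3.37% of all genes higher. A total per gene checks nothing about exons missing from a transcript that is still made, so the genotype stands here on the labels. Xbp1, whose unspliced and spliced forms a gene count sums, was at 98.8 to 108 CPM in IRE1KO and 96 to 99.8 CPM in WT (log2 fold change 0.11 ± 0.038 SE, adjusted p = 0.218). Ern2, the gut form of IRE1, had 0 counts in all 9 libraries.

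None of the 9 substrates passed the test in either direction, where 0.634% of all tested genes did (0.255% as higher and 0.379% as lower). Their median log2 fold change was -0.063, beside -0.0050 for all genes. This median is the value of Bloc1s1 itself, whose count was close to that of an overlapping gene, Rdh5. The value thus cannot be ascribed to Bloc1s1 alone. By sign 4 substrates were positive (Sparc, Pdgfrb, Galnt10, Hgsnat) and 5 negative (Scara3, Pmp22, Ergic3, Tapbp, Bloc1s1), where 48.4% of all genes were positive. At an unadjusted p under 0.05 there were 4, namely Sparc and Pdgfrb on the positive side and Pmp22 and Scara3 on the negative side, where 16.5% of all genes reached that level. No substrate had CPM ranges that were apart between the groups, which 6.94% of all genes had (3.66% with IRE1KO the higher). The fitted folds ran from 0.773 for Scara3 to 1.188 for Sparc. DESeq2 called 1 of 9, Sparc as higher (adjusted p = 0.0317), where it called 1.71% of all genes higher, and limma voom called 0. Among all 13712 genes DESeq2 called 334 lower. Without WT replicate 1 edgeR called 466 of 13820 genes higher and 726 lower. Without WT replicate 4 it called 151 of 13780 higher and 248 lower. Calls of single genes in these settings, given below, stand beside those counts.

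**Figure D1:**
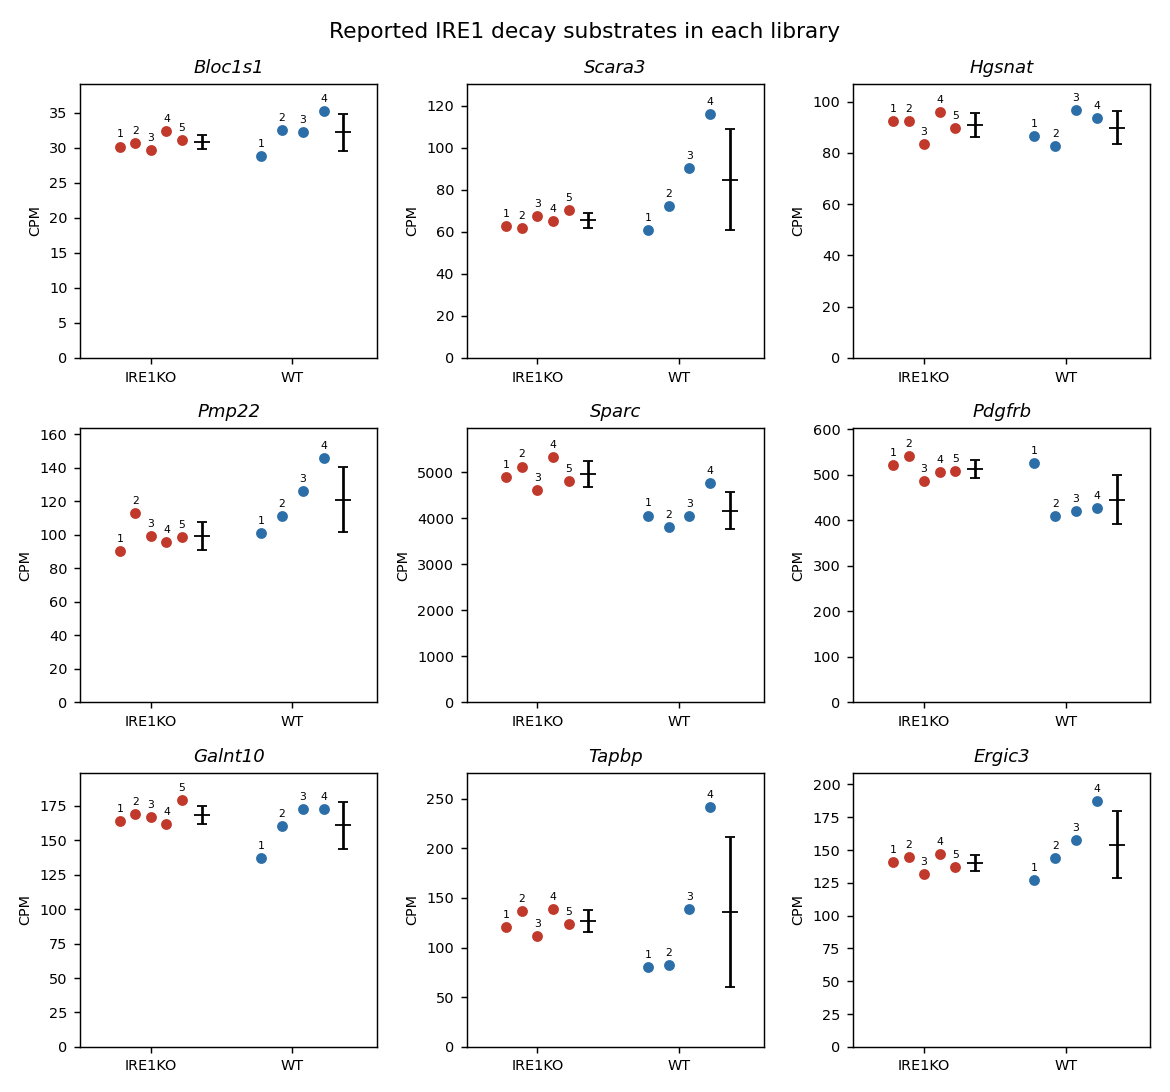
CPM of each of the 9 substrates (vertical axis, from 0) in every library, with the 5 IRE1KO libraries left of the 4 WT libraries in each panel; points are libraries and bars show mean and SD. The IRE1KO points lie close together, for example 112 to 139 CPM for Tapbp, while the WT points of Tapbp spread from 80.3 to 242 CPM.

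**Figure D2:**
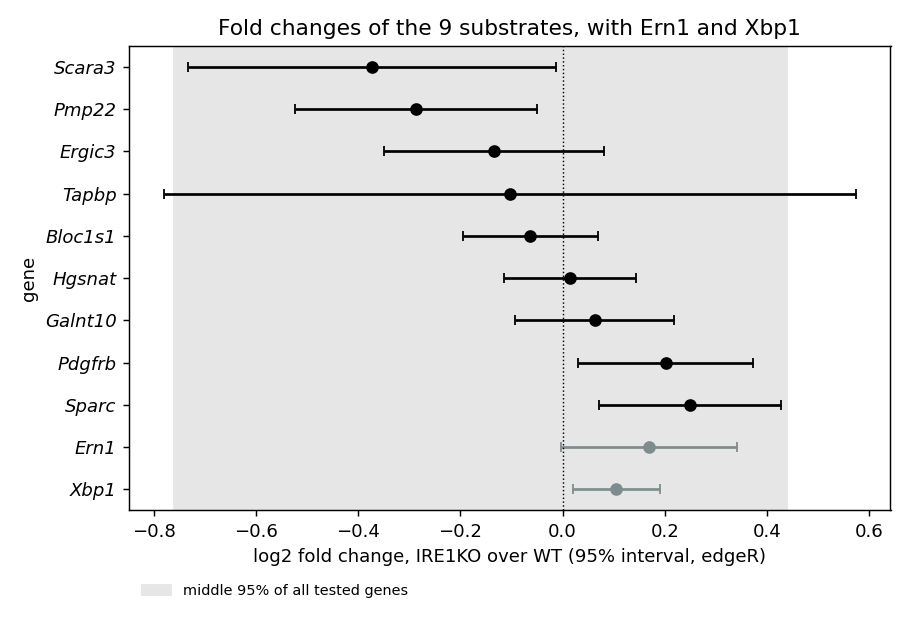
Log2 fold change of IRE1KO over WT (horizontal axis) of the 9 substrates, Ern1 and Xbp1, with 95% intervals from edgeR; the shaded band holds the middle 95% of all tested genes, from -0.76 to 0.44. The points of all 9 substrates lie inside the band.

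Bloc1s1 and Hgsnat serve lysosomes. Bloc1s1 is a subunit shared by BLOC-1, which sorts cargo to lysosome-related organelles, and BORC, which positions lysosomes. It was at 30.2, 30.7, 29.7, 32.4 and 31.1 CPM in IRE1KO and at 28.8, 32.5, 32.3 and 35.3 CPM in WT. The IRE1KO values lie within the WT range. The fold was 0.957 (95% interval 0.873 to 1.049, adjusted p = 0.629 by edgeR), and with any 1 library left out the log2 fold change stayed between -0.11 and -0.017.

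The deposited count of Bloc1s1 was close to that of an overlapping gene. Rdh5, a retinol dehydrogenase gene on the same strand, shares 720 of the 1288 annotated exonic bases of Bloc1s1 (55.9%). Its counts were 605, 586, 546, 706 and 644 in IRE1KO and 557, 612, 615 and 656 in WT, beside 623, 600, 559, 712 and 648 and 564, 633, 639 and 675 for Bloc1s1. In every library the Rdh5 count was thus 96.2% to 99.4% of the Bloc1s1 count. The sources used here do not say how reads in shared exons were assigned, so the level and fold above cannot be ascribed to Bloc1s1 alone.

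Of the 13 subunits of BLOC-1 and BORC, 0 passed in either direction, with 4 positive and 9 negative and a median log2 fold change of -0.058. Dtnbp1 (dysbindin) was the nearest to passing, at 66.7 to 71.6 CPM in IRE1KO against 50.9 to 63.3 CPM in WT (log2 fold change 0.26 ± 0.062 SE, adjusted p = 0.103 by edgeR). Its ranges were apart between the groups, and DESeq2 called it (adjusted p = 0.0111). Snapin followed at -0.10 ± 0.037 (SE, adjusted p = 0.245).

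Hgsnat acetylates the terminal glucosamine of heparan sulfate at the lysosomal membrane, a step in its breakdown. It was at 92.6, 92.4, 83.4, 95.8 and 89.7 CPM in IRE1KO and at 86.5, 82.8, 96.6 and 93.5 CPM in WT. The groups lie over each other, and the fold of 1.010 had an interval of 0.924 to 1.105 (adjusted p = 0.928, edgeR). Its direction turned with the library left out and with scaling by totals. Among 9 lysosomal heparan sulfate genes 0 passed, though 8 were negative (median -0.11). Idua, the iduronidase, was at 20.4 to 22.8 CPM in IRE1KO and 23.9 to 24.4 CPM in WT (log2 fold change -0.18 ± 0.044 SE, adjusted p = 0.103). Naglu, the enzyme that acts after Hgsnat, was at -0.37 ± 0.13 (SE, adjusted p = 0.205), with 42.9 CPM in WT replicate 4 and 26 to 31.9 in the other WT libraries. Without WT replicate 1, edgeR called both, Idua at an adjusted p of 0.0481 and Naglu at 0.0421. That fit called 726 of 13820 genes lower.

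Galnt10, Ergic3 and Tapbp act along the secretory pathway. Galnt10 is one of the transferases that start mucin-type O-glycosylation in the Golgi. It was at 164, 169, 167, 162 and 179 CPM in IRE1KO and at 137, 160.4, 173 and 173 CPM in WT. WT replicate 1 was the low library and the other 3 lay around the IRE1KO values. The fold was 1.045 (95% interval 0.937 to 1.164, adjusted p = 0.683, edgeR), and without WT replicate 1 the log2 fold change was -0.00684. Of 14 tested GALNT genes 0 passed, with 8 positive and a median of 0.055. Galnt14 was at 0.849 to 1.91 CPM in IRE1KO and 0.205 to 0.562 CPM in WT (log2 fold change 1.63 ± 0.34 SE, adjusted p = 0.0687). Galnt11 was at 27.7 to 30.8 CPM in IRE1KO and 32.4 to 34.9 CPM in WT (-0.20 ± 0.045 SE, adjusted p = 0.0796). For both the groups do not overlap. Both were called by DESeq2 (adjusted p = 0.00464 for Galnt14 and 0.0202 for Galnt11) and by edgeR without WT replicate 1 (0.0273 and 0.0304). Galnt14 was also called without WT replicate 4 (0.0497).

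Ergic3 is a cargo receptor that cycles between the ER and the ER-Golgi intermediate compartment. It was at 141, 145, 132, 147 and 137 CPM in IRE1KO and at 127, 144, 158 and 187 CPM in WT. The lowest and the highest library are both WT. The fold was 0.911 (95% interval 0.785 to 1.059, adjusted p = 0.518, edgeR). Of 9 ERGIC cargo receptor genes 0 passed, with 7 positive and a median of 0.038. Tmed2 (log2 fold change 0.10 ± 0.047 SE, adjusted p = 0.307) and Surf4 (0.076 ± 0.051 SE, adjusted p = 0.49) had the smallest p.

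Tapbp encodes tapasin, which holds empty class I molecules of the major histocompatibility complex (MHC) at the TAP peptide transporter. It was at 121, 137, 112, 139 and 124 CPM in IRE1KO and at 80.3, 82.4, 139 and 242 CPM in WT. The IRE1KO libraries lie between the low WT replicates 1 and 2 and the high replicate 4, and the WT libraries span 3.01-fold, the widest range of the 9 substrates. The fold of 0.931 had an interval of 0.582 to 1.488 (adjusted p = 0.898, edgeR). Without WT replicate 4 the log2 fold change was 0.33 (adjusted p = 0.371), against -0.10 with it. Zbtb22, on the same strand, shares 149 of the 3628 exonic bases of Tapbp (4.11%), and its count was 9.06% to 33.7% of the Tapbp count.

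Of 12 genes of MHC class I peptide loading, 0 passed in either direction and 0 reached an unadjusted p under 0.05, with a median log2 fold change of 0.050. Tap2, a TAP subunit, was at 0.18 ± 0.21 (SE, adjusted p = 0.7, edgeR) and Tapbpl, the tapasin relative TAPBPR, at 0.070 ± 0.093 (SE, adjusted p = 0.741). Several of them varied among the WT libraries as Tapbp did, and are named for that after their values were seen. Tap1, the other TAP subunit, was at 56.6 to 88.2 CPM in IRE1KO and 42.3, 38.6, 65.9 and 110.2 CPM in WT. B2m, the class I light chain, was at 458 to 581 CPM in IRE1KO and 338, 251, 451 and 815 CPM in WT. Psmb8, a subunit of the immunoproteasome, was at 25.9 to 44.6 CPM in IRE1KO and 11.9, 6.26, 28.4 and 63.9 CPM in WT. For each of these WT replicate 4 was the highest and WT replicates 1 and 2 the lowest of the 9 libraries. Among WT libraries Calr (calreticulin) and Pdia3 (ERp57), which act in the ER on the same list, spanned 1.08-fold each. Canx (calnexin) spanned 1.24-fold, with WT replicate 4 the lowest at 597 CPM and the other WT libraries at 712 to 744 CPM. Macrophage and osteoclast markers, whose own cells carry much class I, summed to 303 to 457 CPM in IRE1KO and 199 to 424 CPM in WT over 8 genes, so that the highest sum was that of an IRE1KO library. Among WT libraries replicate 4 had the highest sum, 424, of which 202 came from Ctsk (cathepsin K). Of this list, Csf1r, Cd68 and Lyz2 were lower in WT replicate 4 (25.5, 16.7 and 128 CPM) than in WT replicate 3 (34.5, 21 and 147 CPM). Cd14 and Adgre1 were nearly level, at 6.42 and 21.5 CPM in WT replicate 4 and 6.46 and 21.3 CPM in WT replicate 3. Ptprc was slightly higher in WT replicate 4 (8.36 CPM) than in WT replicate 3 (7.98 CPM). Acp5 and Ctsk were higher in WT replicate 4 (15 and 202 CPM) than in WT replicate 3 (7.07 and 150.3 CPM). None of the 8 passed (Ctsk and Csf1r had the smallest p), and their part in the Tapbp values was not tested.

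**Figure D3:**
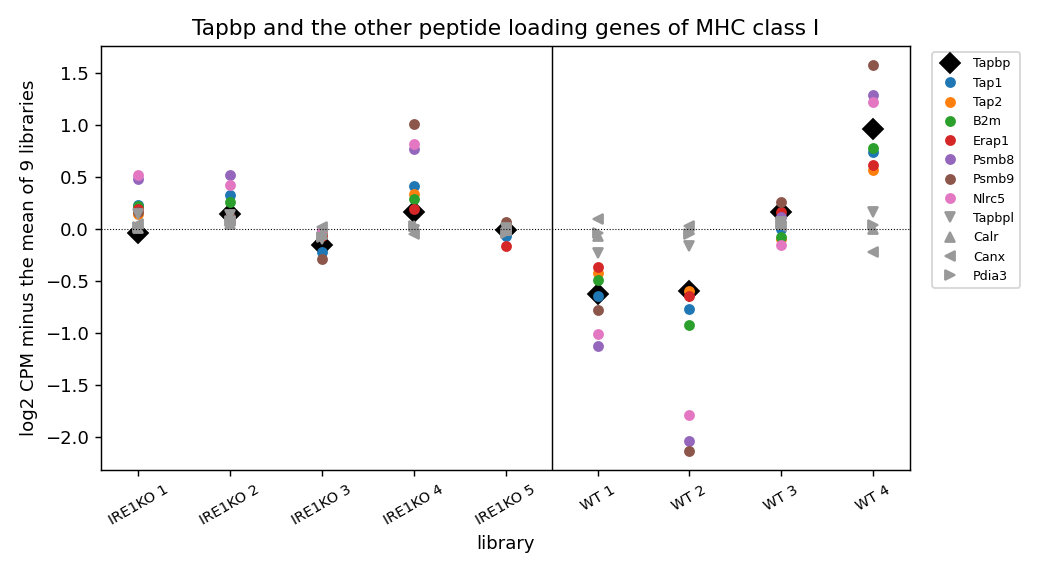
Log2 CPM minus the mean of the 9 libraries (vertical axis) of Tapbp, drawn as black diamonds, and the other peptide loading genes in each library, with IRE1KO left of WT. Tapbp reaches 0.96 in WT replicate 4 and -0.63 in WT replicate 1, and the IRE1KO libraries lie between -0.15 and 0.16.

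Scara3, Pmp22 and Pdgfrb are membrane proteins with different duties. Scara3, a member of the class A scavenger receptor family, is induced by oxidative stress. It was at 62.7, 61.8, 67.8, 65.4 and 70.3 CPM in IRE1KO and at 60.8, 72.5, 90.4 and 116 CPM in WT. WT replicate 1 lies below every IRE1KO library and the other 3 WT libraries above every one. The fold was 0.773 (95% interval 0.602 to 0.992, unadjusted p = 0.0442, adjusted p = 0.287 by edgeR). The log2 fold change of -0.37 ± 0.16 (SE) was -0.19 without WT replicate 4 and -0.50 without WT replicate 1 (adjusted p = 0.0506). Of the 5 genes of the scavenger receptor list, Scara3 included, 0 passed and 4 were negative. The median of -0.37 is the value of Scara3 itself. Scara5, a ferritin receptor, was at 3.94 to 9.89 CPM in IRE1KO and 6.74, 3.9, 16.5 and 49.3 CPM in WT, with a log2 fold change of -1.67 ± 0.66 (SE, adjusted p = 0.251) that was -0.59 without WT replicate 4.

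Pmp22 is a small tetraspan protein, abundant in the myelin of Schwann cells and also made by mesenchymal cells. It was at 90.5, 113, 99.1, 95.7 and 98.8 CPM in IRE1KO and at 101, 111, 126 and 146 CPM in WT. IRE1KO replicate 2 exceeds 2 of the WT libraries, and otherwise every IRE1KO value is below every WT value. The fold was 0.820 (95% interval 0.696 to 0.967, unadjusted p = 0.0232, adjusted p = 0.227 by edgeR). Without WT replicate 4 the log2 fold change was -0.18, against -0.29 ± 0.11 (SE) with all libraries. Of the 4 genes of the PMP22 family 0 passed (median -0.080), and Emp2 was at 68.9 to 76.9 CPM in IRE1KO and 76.9 to 90.3 CPM in WT (-0.21 ± 0.055 SE, adjusted p = 0.117). It was called by DESeq2 (adjusted p = 0.02) and without WT replicate 1 (0.0218).

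Of 8 markers of Schwann cells and glia 6 could be tested, and all 6 had a negative log2 fold change, as Pmp22 had. Of these 1 passed, as lower, where 0.379% of all tested genes were called lower. The list summed to 12.6 to 18.7 CPM in IRE1KO and 21 to 86.9 CPM in WT. The one that passed was Ngfr, the p75 neurotrophin receptor, at 1.94, 1.94, 1.06, 0.456 and 1.73 CPM in IRE1KO and 3.32, 17.1, 18.4 and 23.3 CPM in WT (log2 fold change -3.44 ± 0.56 SE, adjusted p = 0.0452, edgeR). The call was lost with any 1 of the IRE1KO libraries or of WT replicates 2 and 3 left out, where the adjusted p was up to 0.141. Pmp22 itself was above 90 CPM in all 9 libraries. In bulk RNA, fewer cells of a type and less RNA per cell cannot be told apart, and the part of these markers in the Pmp22 values was not tested.

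Pdgfrb is the receptor tyrosine kinase for PDGF-B on mesenchymal and perivascular cells. It was at 521, 540.3, 487, 507 and 509 CPM in IRE1KO and at 526, 409.7, 420.0 and 427 CPM in WT. WT replicate 1 lies among the IRE1KO libraries and the other 3 WT libraries below all of them. The fold was 1.150 (95% interval 1.022 to 1.295, unadjusted p = 0.0251, adjusted p = 0.234 by edgeR). Without WT replicate 1 the log2 fold change was 0.29 (adjusted p = 0.00987), against 0.20 ± 0.076 (SE) with it, and in that fit 3.37% of all genes were called higher. Of 7 PDGF ligands and receptors 0 passed, with 4 positive and a median of 0.024. Pdgfc, a ligand, was at 105 to 125 CPM in IRE1KO and 84.3 to 106 CPM in WT (0.21 ± 0.077 SE, adjusted p = 0.225).

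Pericyte and smooth muscle markers, among whose cells Pdgfrb is abundant, summed over 8 genes to 4564 to 5023 CPM in IRE1KO and 2967 to 6779.6 CPM in WT. The highest sum was that of WT replicate 1, the library in which Pdgfrb was the highest of the WT libraries. The lowest sum was that of WT replicate 4, while Pdgfrb was lowest in WT replicate 2. Acta2 made up most of the sum, with 4459 CPM in WT replicate 1, and Notch3 ran the other way, at 37.8 CPM in WT replicate 1 and 63.4 CPM in WT replicate 4. None of the 8 passed with all libraries. Mcam was at 19 to 25.4 CPM in IRE1KO and 73.4, 53.6, 32.1 and 29.9 CPM in WT (-1.05 ± 0.25 SE, adjusted p = 0.107, edgeR). It was called by DESeq2 (0.00317) and without WT replicate 4 (0.0418). Rgs5, a marker of pericytes, was at 7.59 to 11.9 CPM in IRE1KO and 5.4 to 8.88 CPM in WT (0.29 ± 0.17 SE, adjusted p = 0.428). The part of these markers in the Pdgfrb values was not tested.

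Sparc (osteonectin), a secreted glycoprotein of bone matrix that binds collagen and calcium, was the most abundant of the 9. It was at 4904, 5126, 4606, 5339 and 4800.4 CPM in IRE1KO and at 4061, 3808, 4046 and 4762 CPM in WT. Only WT replicate 4 reaches into the IRE1KO range, above replicate 3 and below the other 4. The fold was 1.188 (95% interval 1.051 to 1.344, unadjusted p = 0.0112, adjusted p = 0.186 by edgeR). Sparc passed in 2 of 16 other settings, DESeq2 and the fit without WT replicate 4 (log2 fold change 0.32, adjusted p = 0.0302), in which 1.1% of all genes were called higher.

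Of 8 genes of the SPARC family 0 passed, 4 in each direction (median -0.073). Sparcl1 (hevin), an anti-adhesive relative, was at 4.17, 3.99, 6, 4.69 and 5.9 CPM in IRE1KO and at 6.99, 11.9, 28.2 and 30.7 CPM in WT. The groups do not overlap, and the log2 fold change was -1.97 ± 0.41 (SE, adjusted p = 0.0714, edgeR). DESeq2 called it (adjusted p = 0.000118), as did edgeR without WT replicate 1 (0.00716). Spock2, a testican proteoglycan, was at 11.3 to 19.3 CPM in IRE1KO and 9.24 to 10.8 CPM in WT (0.54 ± 0.15 SE, adjusted p = 0.155; DESeq2 0.0418).

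Of 11 tested markers of osteoblasts and calvarial mesenchyme, cells that make Sparc, 0 passed. By sign 6 were positive and 5 negative, with a median log2 fold change of 0.021. Col1a1 (type I collagen) was at 21907 to 24824 CPM in IRE1KO and 16896, 15454, 18104 and 31079 CPM in WT (0.19 ± 0.19 SE, adjusted p = 0.651, edgeR). Of the bone matrix genes, Ibsp was at 0.097 to 1.01 CPM in IRE1KO and 0.766 to 3.92 CPM in WT (-2.06 ± 0.58 SE, adjusted p = 0.152, edgeR), and Spp1 (osteopontin) at 725 to 1016 CPM in IRE1KO and 688 to 1938 CPM in WT (-0.78 ± 0.26 SE, adjusted p = 0.205). Both were called without WT replicate 1 (adjusted p = 0.0326 and 0.00911) and Ibsp by DESeq2 (0.0329). Ibsp rested on 2 to 21 counts per IRE1KO library and 15 to 75 per WT library. Chondrocyte markers were all negative in 6 tested genes with 0 passing (Comp and Col9a1 had the smallest p). They summed to 1057 to 1795 CPM in IRE1KO and 1716 to 2427 CPM in WT. The lowest sum was that of IRE1KO replicate 2, where Col2a1 was at 615 CPM, against 1159 to 1271 CPM in the other IRE1KO libraries. The highest was that of WT replicate 4, where Col11a1 was at 1072 CPM. Of 6 endothelial markers 1 passed as lower, Pecam1 (0.0531 to 0.291 CPM in IRE1KO, 0.562 to 0.923 CPM in WT, adjusted p = 0.0497), and they summed to 15.6 to 19.3 CPM in IRE1KO and 11.9 to 32.2 CPM in WT. Pecam1 rested on 1 to 6 counts per IRE1KO library and 11 to 18 per WT library. Its leftmost coordinate lies 0.26 Mb from that of Ern1. Flt1 of the same list had the opposite sign, at 5.92 to 7.72 CPM in IRE1KO and 2.26 to 6.69 CPM in WT (0.87 ± 0.29 SE, adjusted p = 0.199), and Kdr was at -0.026 ± 0.27 (SE) and did not pass. Of 7 adipocyte markers 5 could be tested, all but Plin1 and Adipoq, which were too low. Of these 3 passed as lower, Fabp4, Plin4 and Lpl (adjusted p = 0.0494, 0.0416 and 0.0475, edgeR). Over all tested genes 0.379% were called lower. Fabp4 rested on 17 to 31 counts per IRE1KO library and 42 to 80 per WT library. The 7 adipocyte markers summed to 56.4 to 63.8 CPM in IRE1KO and 81.5 to 142 CPM in WT. These 4 calls too were lost with any 1 of the IRE1KO libraries or of WT replicates 2 and 3 left out. The part of these markers in the substrate values was not tested.

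Per kilobase of annotated exon, the substrates kept much the same order in both groups. Sparc led at 1308 ± 75.3 CPM per kilobase in IRE1KO (SD, n = 5) and 1101 ± 109 in WT (SD, n = 4), more than an order of magnitude above the rest. Pdgfrb followed at 93.6 ± 3.59 in IRE1KO and 81.4 ± 9.9 in WT, and Ergic3 at 66.2 ± 2.8 and 72.6 ± 11.8. Then came Pmp22 at 42.2 ± 3.49 in IRE1KO and 51.4 ± 8.38 in WT, and Tapbp at 34.9 ± 3.14 and 37.5 ± 20.8. Galnt10 (28.2 ± 1.12 in IRE1KO, 27 ± 2.82 in WT), Hgsnat (27.5 ± 1.42 and 27.2 ± 1.9), Bloc1s1 (23.9 ± 0.81 and 25 ± 2.05) and Scara3 (18.2 ± 0.977 and 23.6 ± 6.66) were the lowest. In IRE1KO the ranges of neighbours in this order overlapped only for Galnt10 and Hgsnat. In WT every pair of neighbours overlapped except Sparc and Pdgfrb.

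All 9 substrates varied more among the WT libraries than among the IRE1KO libraries, as did 82.6% of all tested genes. The median coefficient of variation of the 9 was 5.15% in IRE1KO and 12.2% in WT, beside 5.39% and 11.5% for all genes. The edgeR fit gave each gene a measure of spread (dispersion) shared by both groups. Its SEs, intervals and p-values thus assume equal spread and do not allow for this difference. WT replicate 4 was the highest of the 9 libraries for 5 substrates (Bloc1s1, Scara3, Pmp22, Tapbp and Ergic3), and WT replicate 1 the lowest for 5 (Bloc1s1, Scara3, Galnt10, Tapbp and Ergic3). How many of all tested genes had their extremes in these libraries was not counted, so this is not a trait shown for the substrates. Relative to the mean of the other WT libraries, WT replicate 4 was 2.4-fold for Tapbp, 1.55-fold for Scara3, 1.3-fold for Pmp22 and Ergic3, and 0.944-fold for Pdgfrb. Leaving it out moved the median log2 fold change of the 9 to 0.034, and leaving out WT replicate 1 moved it to -0.11. The median of 0.034 is the value of Hgsnat. That of -0.11 is the value of Bloc1s1, which cannot be ascribed to Bloc1s1 alone. Without WT replicate 4 the log2 fold changes were 0.328 for Tapbp, 0.319 for Sparc, 0.181 for Pdgfrb, 0.0992 for Galnt10, 0.0339 for Hgsnat, -0.0167 for Bloc1s1, -0.0286 for Ergic3, -0.182 for Pmp22 and -0.186 for Scara3. Of these, edgeR called Sparc alone.

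**Figure D4:**
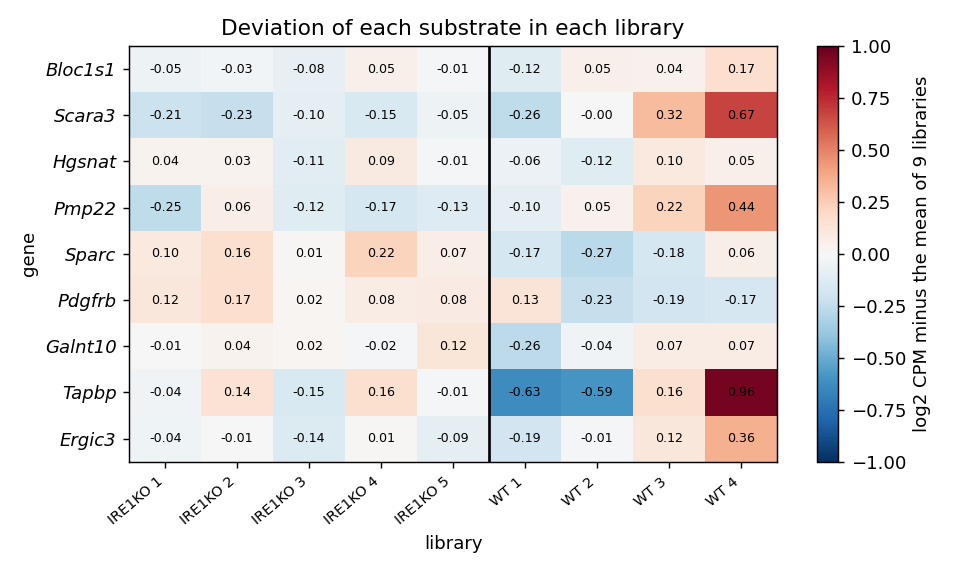
Log2 CPM minus the mean of the 9 libraries (colour) for each substrate (rows) in each library (columns, the 5 IRE1KO libraries left of the 4 WT libraries). WT replicate 4 reaches 0.96 for Tapbp and 0.67 for Scara3, and the widest departure among the IRE1KO libraries is -0.25, for Pmp22 in replicate 1.

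**Figure D5:**
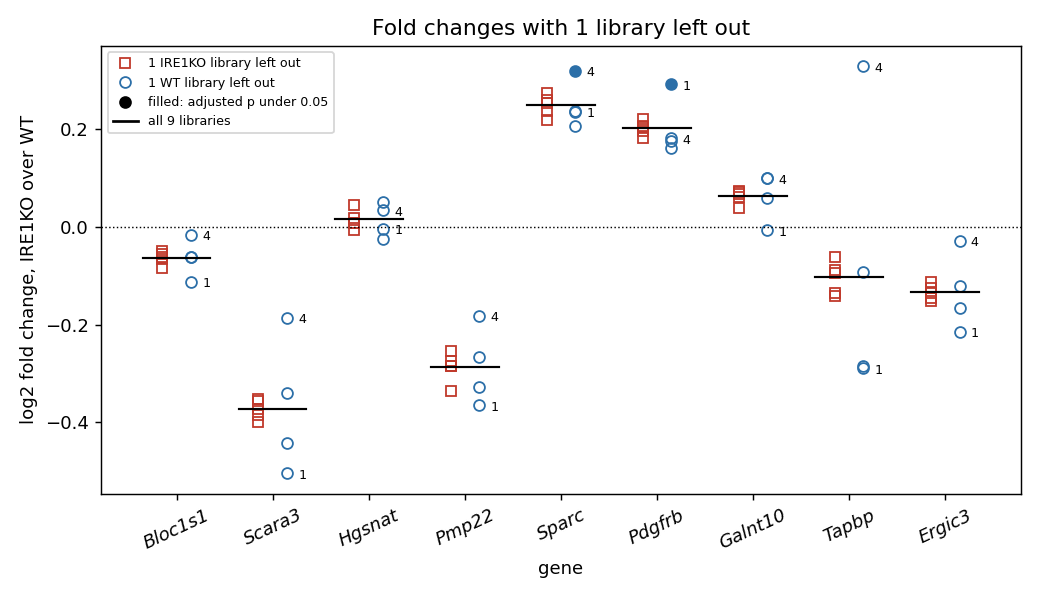
Log2 fold change of IRE1KO over WT (vertical axis) of each substrate when 1 library is left out, with the value from all 9 libraries as a line and filled points where the adjusted p was under 0.05. Tapbp moves most, from -0.29 to 0.33, and the filled points are Sparc without WT replicate 4 and Pdgfrb without WT replicate 1.

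The neighbouring branches of the pathway gave counts of the same kind. Of 10 further genes reported as decay substrates in other tissues, 9 were in the table and 5 could be tested. Of these 5, 0 passed in either direction, with 4 positive and 1 negative (median log2 fold change 0.045). Cd59a, a complement regulator, was at 11 to 13.6 CPM in IRE1KO and 12.8 to 16.5 CPM in WT (-0.21 ± 0.093 SE, adjusted p = 0.289, edgeR), and Per1, a clock gene, at 38.4 to 41.7 CPM in IRE1KO and 35.8 to 39.9 CPM in WT (0.045 ± 0.047 SE, adjusted p = 0.66). Cyp1a2, Cyp2e1 and Ins2, genes of liver and pancreas, had 0 counts in all 9 libraries.

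Of 20 tested genes that encode IRE1, its cofactors and regulators, 0 passed, with 14 positive and a median of 0.059. Of 30 reported XBP1s targets, which serve folding, translocation and degradation in the ER, 0 passed as well, with 17 positive and a median of 0.026. Pdia6, a disulfide isomerase that attenuates IRE1 and is on both lists, was at 394 to 416 CPM in IRE1KO and 415, 461, 485 and 519.7 CPM in WT. The groups overlap through IRE1KO replicate 4 and WT replicate 1 alone, and the log2 fold change was -0.22 ± 0.062 (SE, adjusted p = 0.155, edgeR). It was called by DESeq2 (0.027) and without WT replicate 1 (0.0164). Ptpn1, a phosphatase of the ER membrane, was at 72.5 to 79.2 CPM in IRE1KO and 66.9 to 70.7 CPM in WT (0.13 ± 0.040 SE, adjusted p = 0.166). Serp1, a translocon-associated protein, was at 136 to 139 CPM in IRE1KO and 124 to 131 CPM in WT (0.10 ± 0.031 SE, adjusted p = 0.173; DESeq2 0.0329). For both the groups do not overlap, and neither passed the test.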

How the data were processed

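Raw, unnormalized read counts by gene were deposited by the authors. The submitters' processing notes name STAR, limma and mm10 with no version or role. Which program, annotation and strand setting produced the counts is not given in the sources used here. The labels describe strand-marked libraries made and sequenced in 1 batch. In these libraries a count of 3 corresponded to 0.136 to 0.16 CPM, scaled by the library total alone without the TMM factor (counting error only).

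Genes kept by filterByExpr (13712) were scaled by TMM and tested with edgeR 4.0.16 (quasi-likelihood, robust, R 4.3.3), IRE1KO over WT, with Benjamini-Hochberg adjustment over all of them and a threshold of 0.05. The SE is the log2 fold change divided by the root of F. DESeq2 1.42.0 and voom in limma 3.58.1, other scalings and filters, a replicate block and leaving out each library were alternatives. Steps were tested on simulated counts. Python 3.11.15, NumPy 2.4.6, SciPy 1.17.1, pandas 2.3.3 and matplotlib 3.10.9 made tables and figures.

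The members and the 20 gene lists were chosen with earlier results of these data known. The list for the family or pathway of a substrate includes that substrate, so its counts and median are not independent of it. Named were the members, Ern1 and Xbp1, and per list the genes that passed or else the 2 with the smallest p. For the pair of members with the widest spread over libraries, the 3 genes nearest in pattern were also named. Some listed genes are not reported here. Other names were chosen after their values were seen. Positions come from GENCODE M21 (GRCm38).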

Additional observations from a re-analysis of the deposited data

Results flagged for a closer look

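In each group of 4 or 5 libraries, the highest or lowest library of 44 genes was compared with the rest by Dixon's criterion at 95%, and 5 of 88 groups (5.68%) held a library far from the others; chance gives about 1 in 20. Among the substrates it was Pdgfrb, at 526 CPM in WT replicate 1 and 409.7 to 427 CPM in the other WT libraries. Serp1 was at 136 CPM in IRE1KO replicate 5 and 138 to 139 in the other IRE1KO libraries. Col9a1, a cartilage collagen, was at 1 CPM in IRE1KO replicate 4 (others 0.106 to 0.34) and at 6.21 CPM in WT replicate 4 (others 0.359 to 1.31). Fabp4 was at 1.65 CPM in IRE1KO replicate 3 and 0.87 to 1 CPM in the other IRE1KO libraries.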

How the results depend on the processing

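With all 9 libraries edgeR called 87 genes. It called 46 without TMM, 45 without the low-count filter, 0 with a replicate block over numbers 1 to 4, a fit that also leaves out IRE1KO replicate 5 (1594 at an unadjusted p under 0.05; 3 calls with that library left out and no block), and 2 to 1192 with 1 library left out (1607 to 3916 unadjusted), where 1192 were called without WT replicate 1 and 399 without WT replicate 4. DESeq2 called 568 and limma voom 16. Same-numbered libraries deviated together with correlations of -0.2 to 0.47 in 4 pairs, and 2 of 4 correlated best with their own number, so the numbers were not taken to pair them. The number of substrates called higher was 0, and 1 under DESeq2, and 0 to 1 with a library left out; 0 were called lower in any setting. The log2 fold change of Hgsnat, -0.025 to 0.051 with 1 library left out, turned to -0.00717 without TMM, -0.00736 without IRE1KO replicate 4, -0.00391 without WT replicate 1 and -0.025 without WT replicate 2, and that of Galnt10 (-0.00684 to 0.100) to -0.00684 without WT replicate 1. Tapbp (-0.289 to 0.328) turned to 0.045 under voom, 0.050 under the replicate block and 0.328 without WT replicate 4. Csf1r (-0.071 to 0.427) turned to -0.071 without WT replicate 2. The cause was not tested. Bloc1s1, Scara3, Pmp22, Sparc, Pdgfrb and Ergic3 kept their sign in all 16 alternatives. The 9 substrates had at least 559 counts in each library.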

Other observations

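The 2 substrates that varied most over the 9 libraries were Tapbp and Scara3, with an SD of 0.47 and 0.307 on the log2 CPM scale. The tested genes whose library-by-library pattern was nearest to that of Tapbp were Rnf144a, an E3 ubiquitin ligase, Reps2, an endocytic adaptor, and Igsf10, a secreted protein of mesenchymal cells. Their root mean square differences from Tapbp, after centring, were 0.0539, 0.0651 and 0.0899 log2 units. Rnf144a was at 19 to 24.2 CPM in IRE1KO and at 13.4, 13.2, 22.7 and 43.5 CPM in WT. Igsf10 was at 198 to 247 CPM in IRE1KO and at 137, 163, 240.4 and 386 CPM in WT.

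Nearest to Scara3 were Sspn (sarcospan) at 0.049, the clock gene Per3 at 0.0517 and Phka2, a subunit of phosphorylase kinase, at 0.0575 log2 units. Sspn was at 44.5 to 48 CPM in IRE1KO and at 45.9, 53.6, 62.7 and 78.2 CPM in WT. Per3 was at 20.1 to 23.6 CPM in IRE1KO and at 21.5, 23.9, 29.2 and 38.4 CPM in WT. In each of these genes WT replicate 4 was the highest library. The genes were selected for this likeness, so it is a description.

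Among other substrates reported elsewhere, Col6a1, a chain of type VI collagen, was named after its values were seen. It was at 940.1 to 1181 CPM in IRE1KO and at 647, 739, 1023 and 1570.0 CPM in WT, with a log2 fold change of 0.11 ± 0.23 (SE, edgeR adjusted p = 0.853).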
